A study of Mus musculus with 12 samples.

Results

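The genes described here are 45 mouse genes of protein entry into the endoplasmic reticulum (ER), protein folding in it and the response to ER stress. They were chosen by name, with earlier results of these data known, from the 55401 genes listed in the count tables: 12 for targeting and translocation, 4 for signal peptidase, 7 for oligosaccharyltransferase, 15 for chaperones and folding enzymes, and 7 for the stress response and ER-associated degradation (ERAD). Adult hearts of WT mice and of Rpl3l-/- mice (KO below, lacking the muscle-specific ribosomal protein Rpl3l) were sampled in biological triplicate. Each genotype was measured in 2 fractions, Input (RNA of the whole homogenate) and IP (RNA pulled down with ribosomes through an HA tag, a method called Nano-TRAP), so that 4 groups of 3 libraries, 12 in all, were sequenced as nanopore direct cDNA. Hearts for the IP were treated with cycloheximide on excision and their RNA was purified on columns, whereas Input RNA was extracted with TRIzol. The labels give no promoter or cell type for the HA tag, no sex or exact age, and no link between the hearts used for Input and for IP.

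Many proteins destined for secretion, for membranes or for the sarcoplasmic reticulum enter the ER while they are translated. The signal recognition particle brings the ribosome to the Sec61 channel, signal peptidase removes the leader peptide, oligosaccharyltransferase attaches sugar chains, and chaperones such as Hspa5 (BiP) and the protein disulfide isomerases fold the chain. When unfolded protein builds up, Atf6, Xbp1 and the Atf4 to Ddit3 branch raise chaperone and ERAD genes. Atf4 is also raised through the integrated stress response, to which several kinds of translation stress feed.

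The promoter letters through which Atf6 and Xbp1 act are known, and they set apart a subgroup of the members. The ER stress response element (ERSE) reads CCAAT, any 9 bases and CCACG, and it was searched on both strands of the RefSeq promoter windows of build GRCm38.p6, each 300 bases long (250 before to 50 after the gene start). A window was at hand for 37 of the 45 members, and 7 of these 37 held the element. Over all genes with a window it was 37 of 27025, or 39 of 32851 windows (0.119%). The members were chosen by name for their part in the ER, so their share is a description and no test of enrichment. No window was found by name for Atf6, Hyou1, Manf, Ostc, Sec11c, Sec61a1, Ssr2 and Tram1, and their promoters were not searched. The related ERSE-II, ATTGG, any 1 base and CCACG, was in 12 windows (0.0365%) and Herpud1, which held no ERSE, was the only member among them. The matches are printed below because the levels of these genes are followed together further on; they are given 5′ to 3′ on the strand of the gene, with 4 flanking bases, and capitals mark the fixed letters, so that CGTGG before ATTGG is the element in reverse. A match is a run of letters and no measure of binding.
Hspa5, chr2:34772021-34772047, plus strand: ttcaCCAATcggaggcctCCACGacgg
Calr, chr8:84847071-84847097, minus strand: aacgCGTGGtcgaccctcATTGGccca
Hsp90b1, chr10:86705634-86705660, minus strand: aagcCCAATcgcaaggagCCACGcttc
Hsp90b1, chr10:86705529-86705555, minus strand: agtgCGTGGtgaggcacgATTGGtgag
Canx, chr11:50325796-50325822, minus strand: ttgaCCAATcaccacgctCCACGaaga
Pdia6, chr12:17266487-17266513, plus strand: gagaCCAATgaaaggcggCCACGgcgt
Dnajc3, chr14:118937823-118937849, plus strand: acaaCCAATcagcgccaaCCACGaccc
Creld2, chr15:88819516-88819542, plus strand: ttctCGTGGcgagcctcaATTGGtcca
Herpud1 (ERSE-II), chr8:94386373-94386391, plus strand: gctgATTGGgCCACGttgg

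Library totals ran from 169359 counts (KO Input replicate 3) to 710868 (KO IP replicate 2), and the 45 members took 0.343% to 0.479% of each library, between 812 and 3261 counts. Levels below are TMM-scaled CPM, counts scaled to a common library size with edgeR's correction for composition. In KO Input replicate 3, the shallowest library, 1 count stands for 5.68 CPM and 20 members had fewer than 10 counts. Globin genes, RNA of red blood cells, took 1.70% to 17.2% of a library, most in WT IP replicate 2. Rpl3l itself stood at 222, 308 and 279 CPM in WT Input and 68.5, 26.96 and 51.1 in KO Input, and at 269, 271 and 275 in WT IP and 2.33, 2.62 and 8.31 in KO IP, so all 6 KO libraries lay below all 6 WT libraries. Of 10 cardiomyocyte markers 9 passed the filter and their summed level overlapped between genotypes in both fractions, while Actc1 was at 0 in every library. The rule by which reads were counted is not given, so this 0 was not read as absence of Actc1 RNA, and its cause was not tested.

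The members covered a wide range of levels. Scaled by the longest annotated transcript and averaged over all 12 libraries, Spcs1, a small subunit of signal peptidase, stood highest at 169 CPM per kb, followed by Srp14 of the signal recognition particle at 167, Hspa5 at 140, the lectin chaperone Calr (calreticulin) at 124, Ssr4 of the translocon-associated complex at 110 and Canx (calnexin) at 106. Spcs1 and Srp14 differed by less than the spread among their own libraries. Herpud1, an ERAD adaptor at the ER membrane, was the highest of the stress response group at 95.6 CPM per kb, and Ostc, an oligosaccharyltransferase subunit, the highest of its group at 47.4. Unscaled, Spcs1 had 172, 153 and 228 CPM in WT Input, 156, 146 and 170.5 in KO Input, 191, 183 and 162 in WT IP and 179.7, 166 and 139.6 in KO IP. Ostc had 54.8, 56.7 and 73.9 CPM in WT Input, 53.3, 42.4 and 45.5 in KO Input, 53.3, 34.3 and 58.1 in WT IP and 35.00, 47.1 and 53.2 in KO IP. Neither gene passed the test in any comparison.

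Of the 45 members, 41 passed edgeR's filter on low counts (a minimum count of 10 and a minimum total of 15) and entered the tests, among 6596 genes. The 4 others were the channel subunit Sec61a1, the BiP cofactor Sdf2l1, the ER stress gene Creld2 and the pseudokinase Trib3, a target of Atf4 and Ddit3. Trib3 had 2, 1 and 0 counts in the 3 WT Input libraries, 3, 0 and 1 in KO Input, 3, 1 and 0 in WT IP and 4, 4 and 0 in KO IP. Creld2 had 18 counts over the 3 WT Input libraries, 10 in KO Input, 33 in WT IP and 36 in KO IP. Sdf2l1 had 16, 3, 9 and 16 counts in the same order of groups, and Sec61a1 had 16, 12, 26 and 18, of which 20 of the 26 in WT IP came from 1 library, replicate 3. A genotype difference in these 4 genes was not tested, and at this depth a small one could not be seen. For Trib3 the 95% intervals of the pooled level, which cover counting error only, were 0.56 to 7.94 CPM in WT Input and 1.56 to 14.7 in KO Input. In IP they were 0.60 to 5.61 CPM in WT and 1.92 to 8.78 in KO.

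The first comparison asked whether loss of Rpl3l changed the members in total RNA or on ribosomes. None of the 41 did so past an adjusted p of 0.05 by edgeR's quasi-likelihood test, neither in Input, where 0.182% of all tested genes passed (0.152% higher and 0.0303% lower in KO), nor in IP, where 0.091% passed (0.0303% higher and 0.0606% lower). DESeq2 and limma-voom also called 0 members in both fractions. At an unadjusted p under 0.05 there was 1 member in each fraction (2.44% of 41, against 7.11% of all genes in Input and 5.2% in IP). The members' median log2 fold change, KO against WT, was 0.02 in Input and 0.06 in IP, beside -0.01 and 0.00 for all genes. The 95% intervals lay wholly within 2-fold either way for 29 of 41 members in Input and 34 of 41 in IP. They lay within 1.5-fold for 7 and 13. These intervals are not adjusted for the number of genes, and the smallest change that the adjusted test could call was not tested. In Input, log2 fold changes of -0.93 for Tram1 and -1.05 for Pdia4 had edgeR adjusted p of 0.526 and 0.724, so neither passed. In RNA of whole hearts, fewer cells of a type and less RNA per cell cannot be told apart. Whether replicates were separate hearts is not said beyond the word biological, and p-values measure the spread between these libraries.

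**Figure D1:**
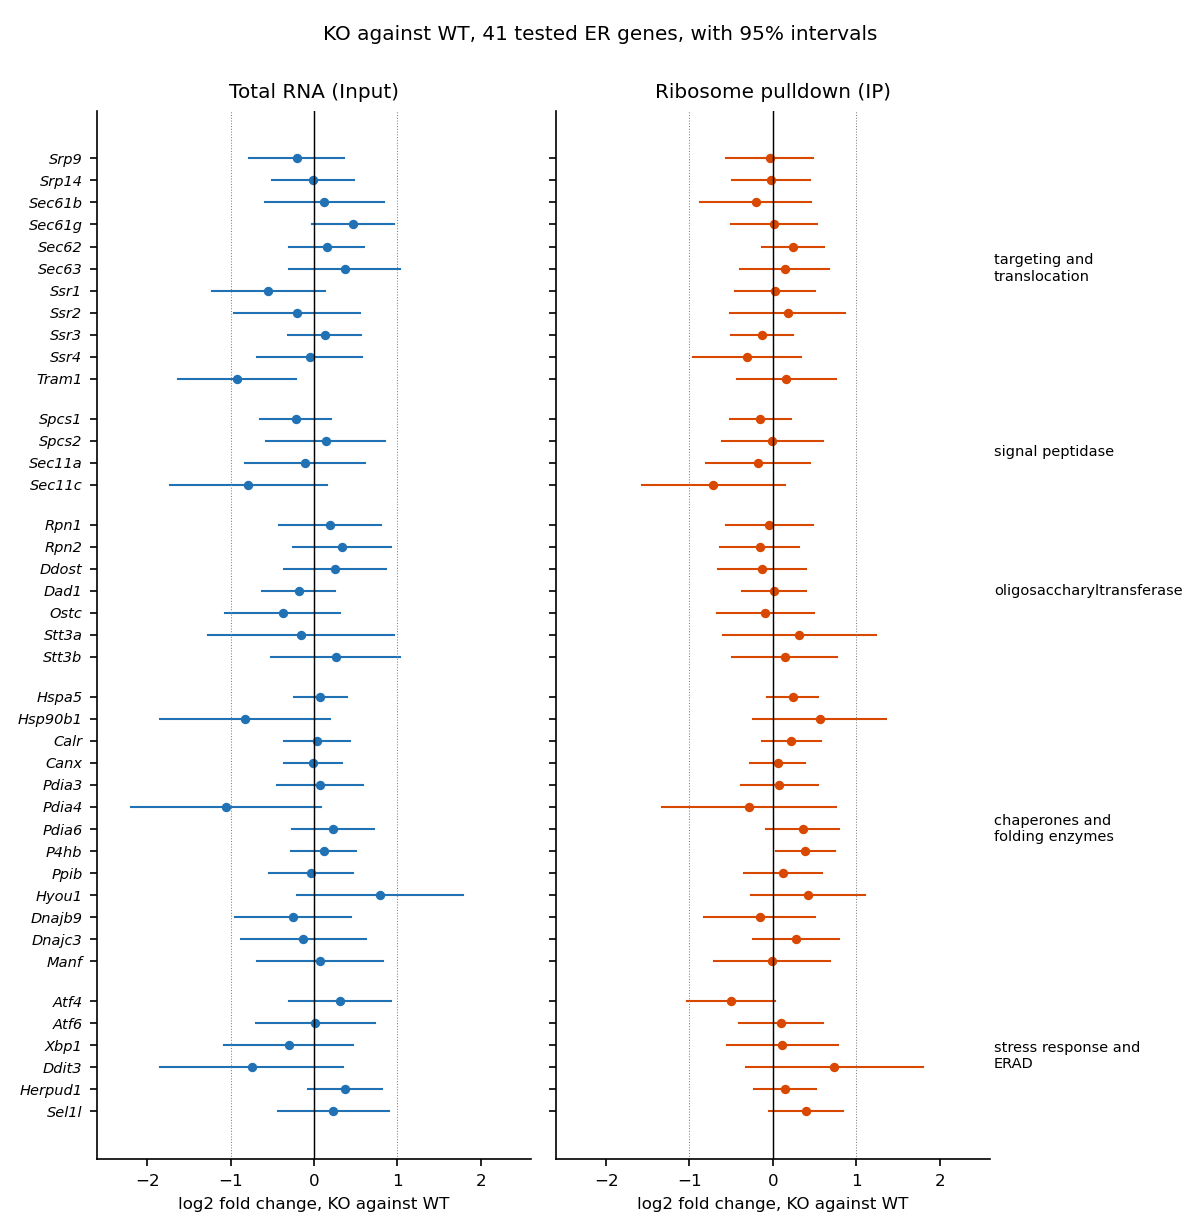
Log2 fold change, KO against WT, of each of the 41 tested ER genes in Input (left) and IP (right), by role from top to bottom; points are edgeR estimates, bars their 95% intervals, and dotted lines mark 2-fold. Intervals cross 0 for all members but Tram1 in Input and P4hb in IP, and they are widest for low genes such as Pdia4 and Ddit3.

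Among the 11 tested genes of targeting and translocation the median log2 fold change was -0.01 in Input and 0.02 in IP. Tram1, which helps nascent chains into the channel, had the lowest unadjusted p of any member in Input. It stood at 62.3, 71.5 and 70.5 CPM in WT Input and 22.8, 53.9 and 28.4 in KO Input, and at 38.5, 35.98 and 44.02 in WT IP and 42.00, 49.7 and 39.9 in KO IP. The Input groups did not overlap, with KO lower, and the IP groups did. The log2 fold change in Input was -0.93 (SE 0.34), with an edgeR p of 0.0124 and an adjusted p of 0.526, and it rested on 6, 14 and 5 counts in the KO libraries. Sec61g, the small gamma subunit of the channel, had an Input estimate of 0.47 (95% interval -0.02 to 0.96) and an IP estimate of 0.02 (-0.50 to 0.53). Ssr1 and Tram1 were the members of this group with all 3 KO Input libraries below all 3 WT, and Sec62 the member with all 3 KO IP libraries above. Over all 6596 genes such a complete separation was found upward in 6.17% and downward in 6.2% for Input, and in 5.4% and 5.44% for IP. Among all 41 tested members it was found upward in 1 and downward in 6 for Input, and in 5 and 1 for IP.

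No signal peptidase or oligosaccharyltransferase gene passed the test between genotypes. For the 4 signal peptidase genes the median log2 fold change was -0.16 in Input and -0.16 in IP. Sec11c, a catalytic subunit, had the smallest p of this group. It measured 19.9, 54.3 and 53.7 CPM in WT Input, 30.5, 19.3 and 22.7 in KO Input, 22.2, 23.98 and 28.2 in WT IP and 14.00, 17.01 and 13.3 in KO IP, with the KO IP libraries all below the WT ones and the Input groups overlapping. Its log2 fold change in IP was -0.71 (SE 0.42, edgeR adjusted p = 0.965). For the 7 oligosaccharyltransferase genes the medians were 0.19 in Input and -0.04 in IP. Rpn2 (ribophorin II) had the smallest p among them, at 74.8, 59.2 and 90.7 CPM in WT Input, 76.2, 77.04 and 136 in KO Input, 97.7, 90.8 and 113 in WT IP and 112, 78.5 and 83.1 in KO IP, with overlapping groups in Input and in IP. Dad1 and Ostc, also of this complex, had all 3 KO Input libraries below all 3 WT ones, with log2 fold changes of -0.18 and -0.37.

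Chaperones and folding enzymes were the most abundant role, with a summed level of 2086 to 2294 CPM in WT Input, 2072 to 2358 in KO Input, 1722 to 1925 in WT IP and 2037 to 2086 in KO IP. The KO IP sums all lay above the WT IP sums, whereas the Input sums overlapped. Of the 13 tested, 10 had a positive log2 fold change in IP and 7 in Input, with medians of 0.22 and 0.04, and none passed the test. Of all tested genes, 50% were above 0 in IP and 49.4% in Input. Of 85 other tested genes of the same pathways, described further on, 52 were above 0 in IP, with a median of 0.05. These were 15 of 22 for folding, 10 of 15 for the stress response, 11 of 16 for ERAD, 11 of 22 for targeting and translocation and 5 of 10 for glycosylation. Hspa5 (BiP, chr2:34771970-34777547 in GRCm38), the main Hsp70 of the ER lumen, had 531, 520.3 and 618 CPM in WT Input and 537, 562 and 665 in KO Input. In the pulldown it had 404, 401 and 444 CPM in WT and 485, 481 and 504 in KO. The IP groups did not overlap, with KO higher, and the Input groups did overlap. Its log2 fold change in IP was 0.24 (SE 0.15, 95% interval -0.06 to 0.54, edgeR adjusted p = 0.965), a fold of 1.18, and in Input it was 0.08 (-0.24 to 0.39). These were the narrowest intervals of any member, and both lay within 1.5-fold.

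P4hb, the beta subunit of collagen prolyl hydroxylase and itself a protein disulfide isomerase, had the lowest unadjusted p of any member in IP. It had 148, 182 and 190.2 CPM in WT IP and 252, 204 and 226 in KO IP, beside 199, 242 and 218 in WT Input and 206, 243 and 273 in KO Input. Every KO IP library was above every WT IP library, and the estimate was 0.39 (SE 0.17, edgeR adjusted p = 0.92). Pdia6, another disulfide isomerase, was separated in the same way, at 88.8, 89.1 and 73.95 CPM in WT IP and 117, 101 and 108 in KO IP, with an estimate of 0.36 (SE 0.21). Hsp90b1 (Grp94), the Hsp90 of the ER, had 64.8, 61.7 and 83.97 CPM in WT Input and 60.9, 46.2 and 0 in KO Input, and 57.7, 23.98 and 66.9 in WT IP and 46.7, 70.6 and 99.7 in KO IP. The 0 came from KO Input replicate 3, where 3 counts, the limit that a count of 0 allows, stand for 17.0 CPM. Without that library the Input estimate went from -0.82 to -0.37.

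**Figure D2:**
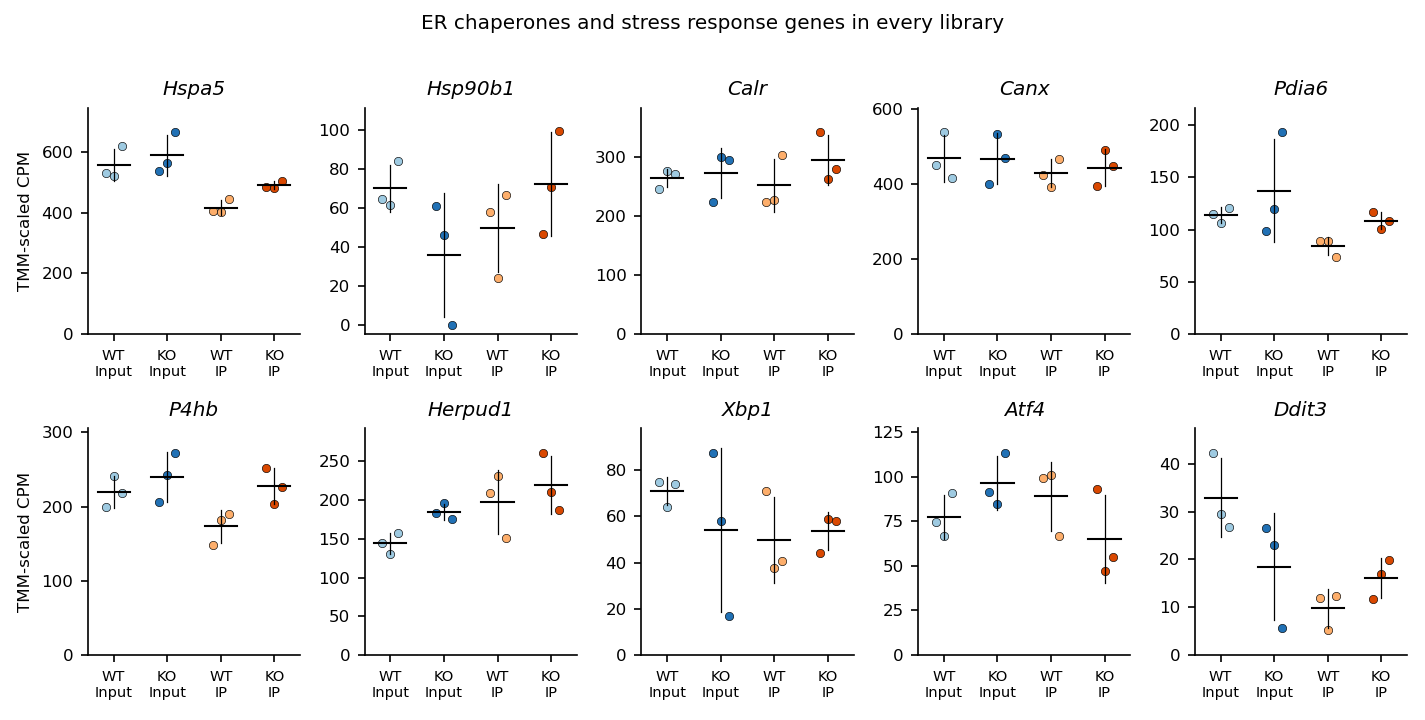
TMM-scaled CPM of 10 ER chaperone and stress response genes in each of the 12 libraries (points), with the group mean (horizontal bar) and SD (vertical bar, n = 3) for WT Input, KO Input, WT IP and KO IP. The KO IP points of Hspa5, Pdia6 and P4hb lie above the WT IP points, whereas the points of Xbp1, Atf4 and Ddit3 overlap in IP, and Hsp90b1 is at 0 in 1 KO Input library.

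The 7 members with an ERSE were read together as a description. Of the 6 that were tested (Hspa5, Calr, Hsp90b1, Canx, Pdia6 and Dnajc3), 6 had a log2 fold change above 0 in IP, from 0.06 for Canx to 0.56 for Hsp90b1, with a median of 0.26, and 3 did in Input, with a median of 0.02. The 28 tested members whose window held no ERSE had a median of 0.00 in IP, with 14 above 0. These 28 include Herpud1 with its ERSE-II. Only exact matches inside the promoter windows were searched, so an altered or more distant element would have been missed. Whether the 28 genes are free of control by Atf6 or Xbp1 was not tested. The 6 ERSE genes are all chaperones or folding enzymes of at least the median coding length of the tested members. Of the 21 members at or above that length 17 were above 0 in IP, with a median of 0.16. Of the 20 shorter ones 7 were, with a median of -0.03. The part of role or length in the ERSE values was not tested. None of the 6 ERSE genes passed the test in either fraction, so no gene of this subgroup was shown to change. The summed level of the 7 ERSE genes was 1228 to 1437 CPM in WT IP and 1517 to 1536 in KO IP, beside 1456 to 1576 in WT Input and 1394 to 1671 in KO Input. The sum over all 45 members did not overlap in IP either, at 3955 to 4115 CPM in WT and 4265 to 4394 in KO. Such sums weigh abundant genes most, and Hspa5, Canx and Calr had the highest means of all members, at 513, 453 and 272 CPM over the 12 libraries. The sum over 128 other ER genes did overlap in IP, at 5842 to 6191 CPM in WT and 5975 to 6588 in KO. How often sums of other gene lists separate was not tested. Markers of other cell types were read in the same libraries, and 0 of them passed the test between genotypes in IP. The summed level of 11 fibroblast markers was 4151 to 4631 CPM in WT IP and 4628 to 5787 in KO IP, with 7 of 10 tested above 0 and a median of 0.16. Erythroid markers, 8 in all with the globin genes among them, summed to 23038 to 203247 CPM in WT IP and 16334 to 72527 in KO IP, and 7 of 7 tested had a log2 fold change below 0, with a median of -1.17 and 4 (57.1%) at an unadjusted p under 0.05. With globin genes left out of the scaling and the test, the median of the ERSE genes in IP was 0.26. Macrophage markers, 10 in all, summed to 771 to 1002 CPM in WT IP and 747 to 859 in KO IP, with 7 of 8 tested below 0 and a median of -0.09. Endothelial markers, 11 in all, summed to 1868 to 2409 CPM in WT IP and 1868 to 1979 in KO IP, and of 9 lymphoid and plasma cell markers none passed the filter, with summed levels of 1.76 to 13.3 CPM in WT IP and 6.54 to 14.96 in KO IP. Smooth muscle and pericyte markers, 9 in all, summed to 768 to 953 CPM in WT IP and 768 to 1011 in KO IP, with 3 of 6 tested above 0. The summed levels of all these lists overlapped between the genotypes in IP, those of the fibroblast markers only from 4628 to 4631 CPM. The part of the cell makeup in the ER levels was not tested.

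The transcription factors Atf4, Ddit3 and Xbp1 did not pass the test between genotypes in either fraction. Atf4 had 74.8, 66.6 and 90.7 CPM in WT Input and 91.4, 84.7 and 114 in KO Input, and 99.2, 101 and 66.9 in WT IP and 93.3, 47.1 and 54.9 in KO IP. The groups overlapped in both fractions, the log2 fold changes were 0.31 in Input (95% interval -0.30 to 0.93) and -0.50 in IP (-1.04 to 0.03), and the edgeR adjusted p in IP was 0.949. Ddit3 (Chop), a factor downstream of Atf4, had 42.4, 29.6 and 26.9 CPM in WT Input and 26.7, 23.1 and 5.68 in KO Input, from 17, 12 and 8 and 7, 6 and 1 counts. All 3 KO Input libraries were below all 3 WT Input libraries, and the interval of the log2 fold change, -1.85 to 0.35, covered more than 2-fold in the lower direction. In IP, Ddit3 had 11.8, 5.14 and 12.3 CPM in WT and 11.7, 17.01 and 19.9 in KO, with overlapping groups.

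Xbp1 had 74.8, 64.1 and 73.9 CPM in WT Input, 87.6, 57.8 and 17.05 in KO Input, 71.1, 37.7 and 40.5 in WT IP and 44.3, 58.9 and 58.2 in KO IP. Its Input estimate was -0.30 (SE 0.37) with all libraries and 0.04 without KO Input replicate 3, which had 3 counts. Gene counts do not tell the spliced from the unspliced form of Xbp1 RNA. Herpud1, which carries the ERSE-II and also a match to TTGCATCA (an Atf4 composite element, in 0.895% of windows), had 145, 131 and 158 CPM in WT Input and 183, 196 and 176 in KO Input. It was the only member with all KO Input libraries above all WT ones, with an estimate of 0.37 (SE 0.22, edgeR adjusted p = 0.756). That is 1 of 41, against 6.17% of all genes, and 6 members had all KO Input libraries below all WT ones, against 6.2%. In IP, Herpud1 had 209, 231 and 151 CPM in WT and 261, 211 and 188 in KO, with overlapping groups. The genotype estimates of the 41 members in Input and in IP, which share no library, had the same sign for 22 (53.7%, against 48.5% of all genes).

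The second comparison set IP against Input within each genotype, which asks how far a gene's RNA was recovered with ribosomes relative to its total RNA. In WT, 2 members were higher in IP (4.88% of 41, against 5.37% of all genes) and 5 were lower (12.2%, against 8.67%). In KO, 4 were higher (9.76%, against 6.64%) and 3 lower (7.32%, against 9.78%). In all, 14% of tested genes passed in WT and 16.4% in KO, so the members' share was near the background. Their median log2 IP to Input ratio was -0.33 in WT and -0.08 in KO, beside 0.02 and 0.01 for all genes, with 28 and 27 of 41 below 0. The WT and KO ratios, from separate libraries, had the same sign for 32 members (78.0%, against 73.6% of all genes). Antibody pulldown, cycloheximide and the RNA purification method all change together between the fractions and cannot be told apart.

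**Figure D3:**
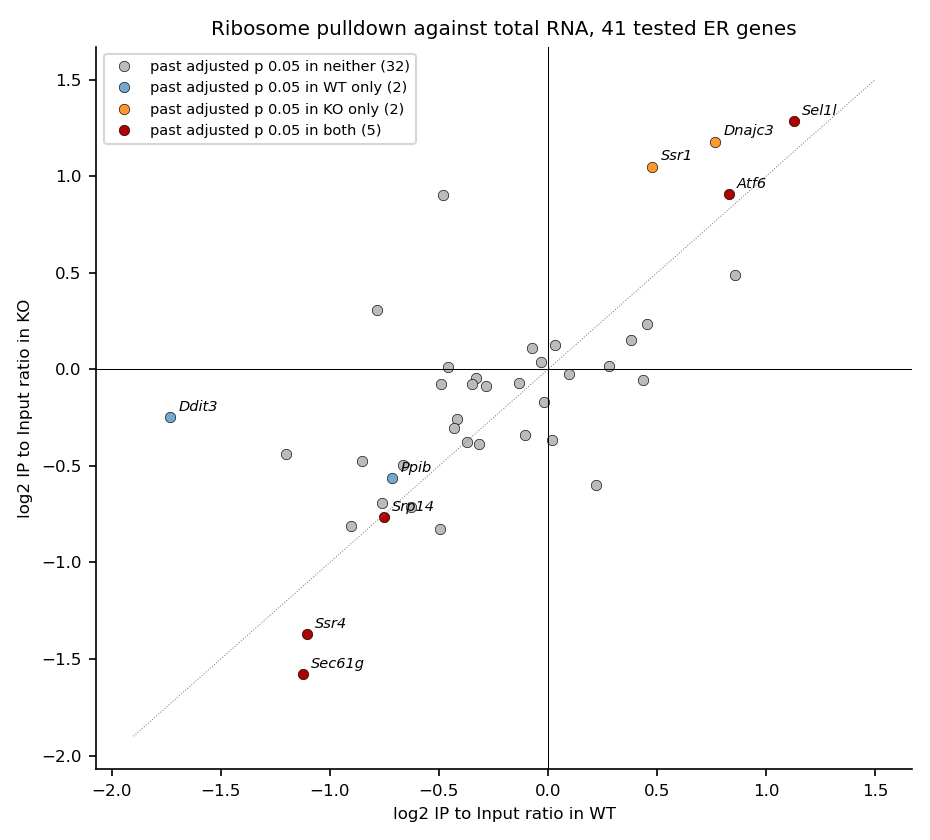
Log2 IP to Input ratio of the 41 tested ER genes in WT (x axis) and in KO (y axis); colours give in which genotype the adjusted p was under 0.05, and the dotted line marks equal ratios. Sel1l and Atf6 lie at the upper right and Sec61g, Ssr4 and Srp14 at the lower left in both genotypes.

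Of the 11 tested targeting and translocation genes 3 were lower in IP in WT and 3 in KO (27.3% each), namely Sec61g, Ssr4 and Srp14, and the other calls downward were Ppib and Ddit3 in WT. Sec61g (chr11:16500530-16508484, minus strand) had 187, 153 and 225 CPM in WT Input and 76.97, 122 and 58.1 in WT IP, and 328, 231 and 210.2 in KO Input and 72.3, 82.4 and 103 in KO IP. Every IP library was below every Input library. The log2 ratio was -1.12 in WT (SE 0.24, edgeR adjusted p = 0.00231) and -1.58 in KO (SE 0.25, adjusted p = 6.67e-05). Sec61g has 9 pseudogene copies of at least 90% identity over 200 bases or more, and these had 3 counts in all beside its 699.

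Ssr4 (chrX:73787028-73790830), the delta subunit of the translocon-associated complex, fell from 99.7, 143 and 141 CPM in WT Input to 44.4, 54.8 and 79.2 in WT IP, and from 149, 146 and 62.5 in KO Input to 25.7, 52.3 and 59.8 in KO IP. The groups did not overlap in either genotype, and the log2 ratios were -1.11 (SE 0.30, edgeR adjusted p = 0.0127) and -1.37 (SE 0.32, adjusted p = 0.00416). Srp14 had 179, 205 and 118 CPM in WT Input and 91.8, 106 and 104 in WT IP, with no overlap, and 175, 216 and 102 in KO Input and 98.01, 90.3 and 109.7 in KO IP, where KO Input replicate 3 fell within the range of the IP. Its log2 ratios were -0.75 (edgeR adjusted p = 0.0266) and -0.77 (adjusted p = 0.0306). The Ssr4 call in WT was lost without WT IP replicate 1 (-0.91) or 2 (-1.06) or without WT Input replicate 2 (-1.01) or 3 (-1.04). The Srp14 call in WT was lost without any 1 of the 3 WT IP libraries or WT Input replicate 1 or 2 (-0.79 to -0.59), and in KO without any 1 of the 3 KO IP libraries or KO Input replicate 1 or 2 (-0.83 to -0.53). The 11 tested targeting and translocation genes had a median of -0.66 in WT and -0.48 in KO.

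Ppib, the cyclophilin of the ER, passed in WT only. It had 129.6, 96.2 and 97.4 CPM in WT Input and 60.7, 77.1 and 59.9 in WT IP (log2 ratio -0.72, edgeR adjusted p = 0.0364), and 114, 100.2 and 102 in KO Input and 74.7, 61.5 and 79.8 in KO IP (-0.56, adjusted p = 0.121), and the IP libraries were below the Input libraries in both genotypes. That WT call was lost on leaving out any 1 of the WT Input libraries, the first or the third WT IP library or the third KO IP library, with ratios of -0.80 to -0.56. Exons of Ppib share 825 bases with Snx22 on the opposite strand, which had 25 counts beside 441. Ddit3 also passed in WT only, with the values given above, at a log2 ratio of -1.73 (SE 0.50, edgeR adjusted p = 0.0211), against -0.25 (SE 0.55) in KO. The Ddit3 call was lost without WT IP replicate 2 (-1.44) or WT Input replicate 1 (-1.51). Its WT ratio rests on 8, 3 and 7 counts in WT IP, and 68 exon bases are shared with Mars on the opposite strand (193 counts beside 99). Another annotated protein-coding entry named Ddit3 shares 105 exon bases on the same strand and had 0 counts.

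**Figure D4:**
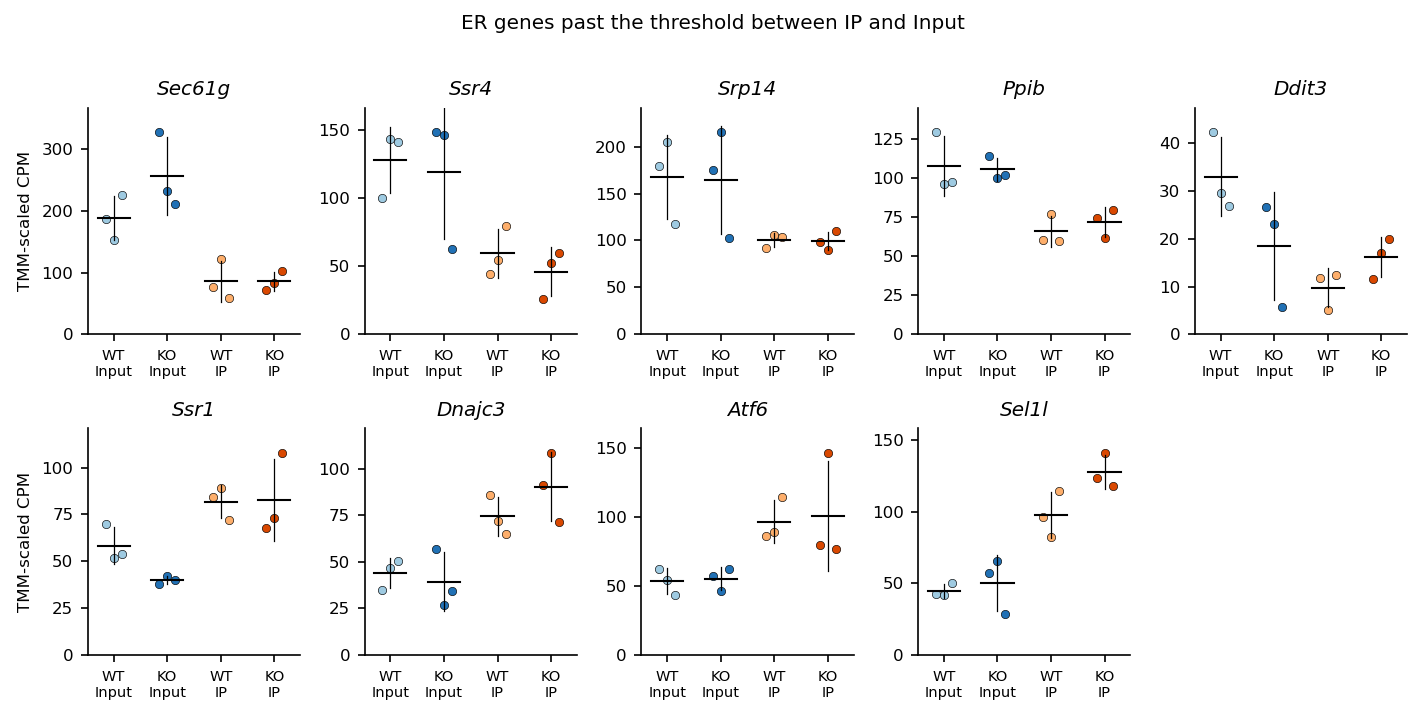
TMM-scaled CPM in each of the 12 libraries (points), with group mean (horizontal bar) and SD (vertical bar, n = 3), of the 9 ER genes past an adjusted p of 0.05 between IP and Input in WT, KO or both. The top row holds the genes lower in IP and the bottom row those higher in IP. The IP points clear the Input points in both genotypes for all genes shown but Srp14 and Ddit3, whose points overlap in KO.

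The members higher in IP belonged to ERAD, stress sensing, folding and translocation. Sel1l (chr12:91806043-91849157, minus strand), the adaptor of the Hrd1 ubiquitin ligase in ERAD, rose from 42.4, 41.9 and 50.4 CPM in WT Input to 96.2, 82.2 and 114 in WT IP, and from 57.1, 65.5 and 28.4 in KO Input to 124, 141 and 118 in KO IP. No IP library overlapped an Input library, and the log2 ratio was 1.13 in WT (SE 0.26, edgeR adjusted p = 0.00417) and 1.29 in KO (SE 0.27, adjusted p = 0.00172). This call held in WT and in KO under all 24 alternative settings. Atf6, the membrane-bound sensor cut in the Golgi, had 62.3, 54.3 and 43.7 CPM in WT Input and 85.9, 89.1 and 114 in WT IP, and 57.1, 46.2 and 62.5 in KO Input and 79.3, 147 and 76.5 in KO IP. The groups were apart in both genotypes, but the edgeR adjusted p was close to the threshold, 0.0493 in WT and 0.0435 in KO, and the call was lost in 18 and 15 of 24 alternatives. In WT these included leaving out any 1 of the WT IP, WT Input or KO Input libraries (0.70 to 0.95), and in KO leaving out WT IP replicate 1 or 2, KO IP replicate 2, WT Input replicate 1 or 2 or any KO Input library (0.52 to 0.99).

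Dnajc3 (p58IPK), a BiP cochaperone and inhibitor of eIF2 alpha kinases, had 34.9, 46.9 and 50.4 CPM in WT Input and 85.9, 71.95 and 65.1 in WT IP, and 57.1, 26.96 and 34.1 in KO Input and 91.01, 109 and 71.5 in KO IP. All IP libraries were above all Input libraries of the same genotype. Its log2 ratio was 0.77 in WT (edgeR adjusted p = 0.0795) and 1.18 in KO (adjusted p = 0.012). The KO call was lost without KO IP replicate 2 (1.02) or KO Input replicate 2 (0.94). Ssr1, the alpha subunit of the translocon-associated complex, had 69.8, 51.8 and 53.7 CPM in WT Input and 84.4, 89.1 and 72.2 in WT IP, and 38.1, 42.4 and 39.8 in KO Input and 67.7, 73.3 and 108 in KO IP. Its ratio was 0.48 in WT (adjusted p = 0.234) and 1.05 in KO (edgeR adjusted p = 0.0184), so 2 subunits of 1 complex, Ssr1 and Ssr4, went in opposite directions in the KO pulldown. The Ssr1 call was lost without KO IP replicate 3 (0.83) or without KO Input replicate 1 (1.01) or 2 (1.10). It was also lost by DESeq2 (adjusted p = 0.0508) and by limma-voom (adjusted p = 0.0549). The longest annotated transcripts of Ssr1 and Ssr4 are 9333 and 800 bases. With the transcript length trend over all genes removed, both lost their KO calls, at 0.65 and -0.81.

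Hspa5 fell just short of the threshold in WT. Its means were 556 ± 53.6 CPM (SD, n = 3) in WT Input and 416 ± 23.8 in WT IP, without overlap, and its log2 ratio was -0.42 (SE 0.15, edgeR adjusted p = 0.0613). It passed in 5 of 24 alternatives, with the stricter count filter (-0.47, adjusted p = 0.0203), with only the libraries compared (-0.41), with the transcript or the coding length trend removed (-0.46 and -0.52) and without KO Input replicate 3 (-0.41). In KO they were 588 ± 67.7 and 490.1 ± 11.9, with a ratio of -0.26 (SE 0.15). The 4 signal peptidase and 7 oligosaccharyltransferase genes had no call in either genotype, with median ratios of -0.17 and -0.10 in WT and -0.28 and -0.05 in KO.

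The IP to Input ratio of the members followed their length. Across the 41 genes, which share libraries and are not independent, the log2 ratio and the log2 annotated coding length had a Pearson r of 0.53 in WT and 0.578 in KO, beside 0.24 and 0.305 over all tested genes with a length. For the log2 longest annotated transcript the r was 0.633 in WT and 0.679 in KO, beside 0.234 and 0.308. Of the 20 members below the median coding length, 5 were lower in IP and 0 higher in WT, and 3 were lower and 1 higher in KO. Of the 21 at or above it, 0 were lower in either genotype, and 2 were higher in WT and 3 in KO. With the trend on coding length over all genes removed, the WT ratio of Sec61g went from -1.12 to -0.56, past the threshold no longer (edgeR adjusted p = 0.128, with a range of 0.000172 to 0.128 over its alternatives). The other 4 members lower in WT IP also lost their calls, with Srp14 at -0.23, Ssr4 at -0.79, Ppib at -0.51 and Ddit3 at -1.41. In KO, Sec61g at -0.97 and Ssr4 at -1.04 stayed past the threshold and Srp14 at -0.21 did not. The ratio of Sel1l stayed past it in both genotypes. The coding length trend was chosen after seeing the data, whereas the trend on transcript length was planned. With the transcript length trend removed, the calls of Sec61g and Sel1l held in both genotypes. In KO, Ssr4 (-0.81), Srp14 (-0.20), Ssr1 (0.65), Dnajc3 (0.96) and Atf6 (0.58) lost theirs. In WT, Ssr4 (-0.61), Srp14 (-0.26), Ppib (-0.26), Ddit3 (-1.28) and Atf6 (0.64) did. Length is a property of the annotation, and the part of read length, pulldown or translation in this relation was not tested.

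**Figure D5:**
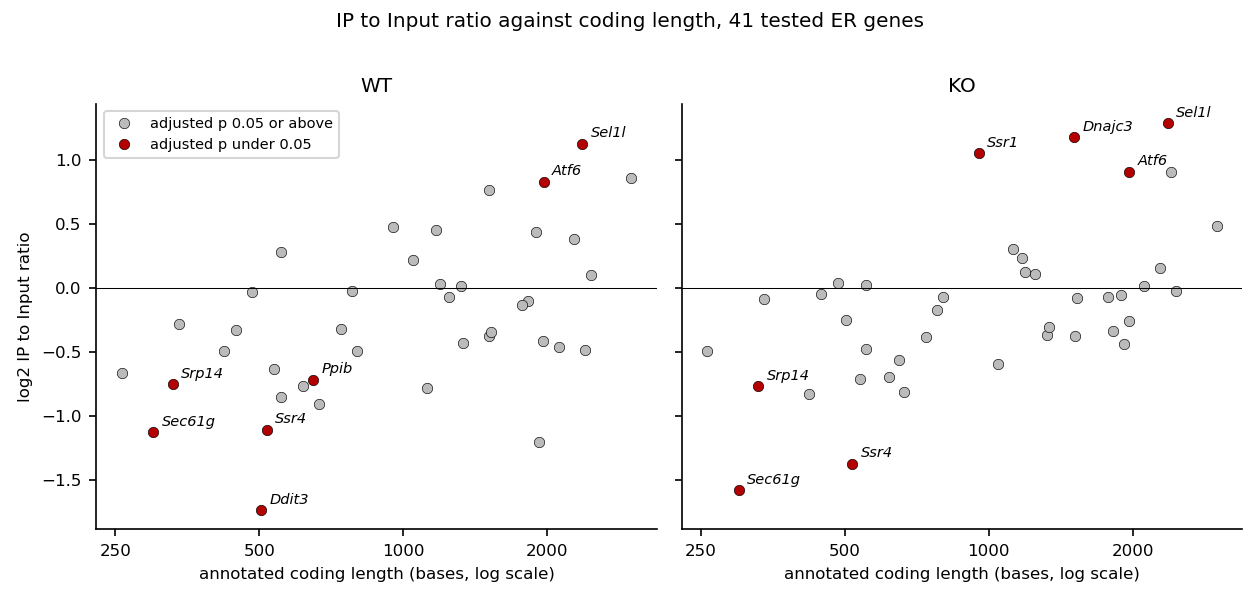
Log2 IP to Input ratio of the 41 tested ER genes against annotated coding length in bases (log axis), in WT (left) and KO (right); red points had an adjusted p under 0.05. Points rise from left to right: the genes lower in IP, such as Sec61g and Ssr4, are among the shorter ones, and Sel1l is among the longer ones.

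The third comparison was the difference of the IP to Input ratio between genotypes, the interaction of the model. No member passed by edgeR (0.091% of all genes did, 0.0303% higher and 0.0606% lower), nor by DESeq2 or limma-voom, and 3 of 41 (7.32%, against 7.02% of all genes) had an unadjusted p under 0.05. For Tram1 the KO minus WT difference was 1.09 (SE 0.45, edgeR adjusted p = 0.627), with ratios of -0.78 in WT and 0.31 in KO. For Hsp90b1 it was 1.39 (SE 0.63), and 0.93 without the KO Input library that had 0 counts. For Atf4 it was -0.82 (SE 0.39, 95% interval -1.63 to -0.00), with ratios of 0.22 in WT and -0.60 in KO. Ddit3, called in WT alone, had a difference of 1.48 (95% interval -0.05 to 3.01, edgeR adjusted p = 0.723), so its ratio was not shown to differ between genotypes, and neither were those of Ppib, Ssr1 and Dnajc3.

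Of a further 128 genes of the same pathways, 85 were tested. None passed between genotypes in Input or in IP, nor for the difference of ratios. Between IP and Input, 5 were higher (5.88%) and 5 lower (5.88%) in WT, and 2 higher (2.35%) and 6 lower (7.06%) in KO. Their median log2 IP to Input ratio was -0.05 in WT, with 47 of 85 below 0, and 0.01 in KO, with 41 below 0. Tmem258 and Ost4, a pair of very small subunits of oligosaccharyltransferase, were lower in both genotypes. Tmem258 had 396, 355 and 399.7 CPM in WT Input and 175, 164 and 164 in WT IP (log2 ratio -1.19, edgeR adjusted p = 1.72e-05), and its KO ratio was -1.18. Ost4 had ratios of -1.38 in WT and -1.38 in KO. Srpr, the receptor of the signal recognition particle, and Wfs1 (wolframin) were higher in WT IP, at 0.92 and 0.97. In KO IP the higher genes were Tmbim6 (Bax inhibitor 1), at 0.98, and Srp68 of the signal recognition particle, at 1.08.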

How the data were processed

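RNA of 12 mouse heart libraries was measured, 3 in each of WT Input, KO Input, WT IP and KO IP, grouped by the sample titles. The deposited values were whole-number read counts per gene, 1 table per library. Per the submitters' processing notes the tools were minimap2 2.14 and DESeq2 1.34.0 and the build GRCm38; the counting rule and its use of strand are not given in the sources used here. Gene IDs were matched without version to GENCODE M21, 55141 of 55401, and promoters were taken from RefSeq. The members and all gene lists were chosen with earlier results of these data known.

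Counts were tested with edgeR 4.0.16 (TMM, filterByExpr with a minimum count of 10 and a minimum total of 15, quasi-likelihood F test, 4 group means over all 12 libraries) in R 4.3.3. Benjamini-Hochberg adjustment ran over all 6596 tested genes of a comparison, with a threshold of 0.05. Each SE is the absolute log2 fold change over the square root of F. The procedure was tested on simulated data. Other scalings, filters, DESeq2 1.42.0, limma-voom (limma 3.58.1), a replicate block, removal of length trends and leaving out libraries were tried as alternatives. Limits that a count of 0 allows (3 counts) cover counting error only.

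Values in every library are given for members past the threshold in any comparison, for the member of each role with the highest level per length and the one with the smallest genotype p, and for Hspa5, Atf4, Ddit3, Xbp1, Trib3 and Herpud1; of the other ER genes, up to 2 called per comparison and direction are named, smallest p first. Calr, Canx, Pdia6 and Hsp90b1 are named beside these as ERSE genes or for their values. No 2 libraries of a group agreed within sampling noise (chi-square per degree of freedom 2.84 to 13.7).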

Additional observations from a re-analysis of the deposited data

How the results depend on the processing

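No member passed the test between genotypes, or for the difference of the IP to Input ratio, under any alternative run. The counts between IP and Input moved. In WT, 5 members were lower by the edgeR test over all libraries, 3 with scaling by library totals, 3 by DESeq2, 8 by limma-voom, 10 with only the libraries compared, 2 with the transcript length trend removed (Sec61g and Hspa5) and 1 with the coding length trend removed (Hspa5, none of the 5); leaving out 1 library gave 2 to 7. In WT, 2 were higher, and 1 with library totals, with the stricter filter (30 counts in 3 libraries), by DESeq2, by limma-voom, with globin genes left out, with the coding length trend removed, and without WT Input replicate 3 and KO Input replicate 3 together; leaving out 1 library gave 1 to 2. In KO, 4 were higher, 2 by DESeq2, 2 by limma-voom and 1 with the transcript length trend removed; leaving out 1 library gave 1 to 4. In KO, 3 were lower and 1 with the transcript length trend removed; leaving out 1 library gave 2 to 4. The cause of these moves was not tested. The coding length trend and the removal of 2 libraries together were chosen after seeing the data. Scaling by library totals moved the all-gene median to 0.12 in KO against WT in IP, 0.10 for IP against Input in WT and 0.15 in KO.

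The labels number the libraries 1 to 3 in each group. Same-numbered libraries did not deviate together (correlations of -0.115 to 0.0423, own number best in 1 of 18), so no pairing was used. With the replicate block, 1 member was higher and 4 were lower in IP in WT, 3 were higher and 3 lower in KO, and 0 were called between genotypes.

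Small genotype estimates changed sign. On leaving out 1 library, Herpud1 in IP ranged from -0.0061 (no WT IP replicate 3) to 0.2644, Hspa5 in Input from -0.0129 (no KO Input replicate 3) to 0.1431, and Xbp1 in Input from -0.8173 to 0.0407 (no KO Input replicate 3). Xbp1 in IP ranged from -0.0569 (no WT IP replicate 2) to 0.4691, with -0.0085 in the absence of the third WT IP library. Xbp1 in Input was 0.062 with Input replicate 3 of both genotypes left out. Low counts limit the Input of KO most, and absence of a call there is not evidence of equal levels.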

Other observations

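The sarcoplasmic reticulum is the specialised ER of heart muscle, and many, though not all, of its proteins pass through the same entry route. Of 9 genes of sarcoplasmic reticulum proteins, all tested, 4 were higher in IP than in Input in WT (Atp2a2, the calcium pump, Asph, Srl and Jph2), against 5.37% of all genes, and 3 in KO (Ryr2, the calcium release channel, Asph and Jph2), against 6.64%, with 0 lower in either and median log2 ratios of 0.45 and 0.33. Their summed level was 15632 to 17302 CPM in WT Input and 21452 to 23056 in WT IP, without overlap. In KO it was 15978 to 19826 in Input and 19236 to 21840 in IP, with overlap. None of the 9 passed between genotypes in Input or in IP by edgeR's test. The 9 tested cardiomyocyte markers, which share Ryr2 and Pln with this list, had median log2 ratios of -0.07 in WT and -0.13 in KO. Of those markers 0 were higher in IP and 2 lower in WT (Myh6 and Mb), and 2 were higher (Tnnt2 and Ryr2) and 1 lower (Mb) in KO. The ratio rose with length over all genes, and the part of length in the values of the sarcoplasmic reticulum genes was not tested.

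Adipocyte markers differed between the fractions. Of 8 listed, 3 were tested, with median log2 IP to Input ratios of -3.35 in WT and -3.13 in KO, and 2 of them, Cfd and Ucp1, were lower in IP in both genotypes, and the list summed to 141 to 766 CPM in WT Input and 16.3 to 70.4 in WT IP, beside 193 to 400 in KO Input and 26.6 to 57.6 in KO IP.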
